A study of Homo sapiens with 3 samples.

Results

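The 10 genes described here are the forkhead transcription factors FOXO1, FOXO3 and FOXO4 and 7 genes that FOXO factors are known to activate: SESN1, SESN3, CCNG2, BCL6, TXNIP, IRS2 and GADD45B. They were taken by gene symbol from a table of 30923 genes, and each symbol matched 1 row. The table holds RNA sequencing of QBC-939, a human cholangiocarcinoma (bile duct carcinoma) cell line labelled wild type, with 1 library in each of 3 groups. Cells of the group oe-miR-182-5p were made to overexpress the microRNA miR-182-5p, those of oe-miR-183-5p overexpressed miR-183-5p, and those of oe-NC a control labelled NC. The sample titles are miR182_mim, miR183_mim and NC. Dose and time of harvest are not given in the labels, and microRNA levels were not analysed here. With 1 library in a group no comparison has a replicate or a p-value. Ratios below are ratios of CPM (a gene's count scaled by the library total), with an exact 95% interval in parentheses that covers counting error only. A gene is called higher or lower when this interval excludes 1. In bulk RNA, fewer cells expressing a gene and less of its RNA per cell cannot be told apart.

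FOXO factors switch on genes of growth arrest, stress resistance and nutrient sensing. When insulin or growth factors activate the kinase AKT, FOXO proteins are phosphorylated, bound by 14-3-3 proteins and exported from the nucleus, so the level of a FOXO messenger RNA is not a measure of the activity of the protein. MicroRNAs lower their target messenger RNAs through pairing of a short 5′ stretch, the seed, with sites in the 3′ UTR. FOXO1 and FOXO3 are reported targets of miR-182-5p, which is made from a gene cluster together with miR-183-5p and miR-96-5p.

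The mature sequences are shown because the 3 seeds are alike but not identical, and set which FOXO transcripts can pair. They come from RefSeq (GRCh38.p14) and lie on the minus strand of chromosome 7, miR-182-5p at chr7:129770447-129770470, miR-96-5p at chr7:129774739-129774761 and miR-183-5p at chr7:129774967-129774988. Capitals mark the seed, bases 2 to 8.
miR-182-5p: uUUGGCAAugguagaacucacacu
miR-96-5p: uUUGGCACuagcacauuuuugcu
miR-183-5p: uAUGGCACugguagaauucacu

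Matches to bases 2 to 8 of miR-182-5p were found in the 3′ UTRs of 2 of the 10 genes, FOXO3 and SESN3, where 15.1% of the 10849 genes searched hold one. Matches to miR-183-5p were found in 4, FOXO1, SESN1, SESN3 and CCNG2, against 12.2% of the genes searched. The search used the longest 3′ UTR of each gene in GENCODE release 29 (GRCh38), and the members' 3′ UTRs were longer (median 2416.5 nucleotides) than those of all genes searched (median 1316). The sites are given 5′ to 3′ on the transcript, with the match in capitals. FOXO3 holds a pair of miR-182-5p sites, both followed by A (8mers), at nucleotides 72 and 914 of a 3′ UTR of 4982 (chr6:108679864-108679870 and chr6:108680706-108680712, plus strand). The SESN3 site is at nucleotide 6771 of 7742 (chr11:95166478-95166484, minus strand).
FOXO3, miR-182-5p, upstream: tacagagaaaaccctTTGCCAAa
FOXO3, miR-182-5p, downstream: tcagctctccactcaTTGCCAAa
SESN3, miR-182-5p: gcacatgaaatcagaTTGCCAAc

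FOXO1 has no such match to miR-182-5p. Its 3′ UTR of 3382 nucleotides has at nucleotides 265 and 2140 a match to seed bases 2 to 7 followed by A (chr13:40558779-40558784 and chr13:40556904-40556909, minus strand). These positions are also full 8mer sites of miR-96-5p, whose seed shares bases 2 to 7 with that of miR-182-5p. FOXO1 further holds miR-183-5p matches at nucleotides 236 and 2194 (chr13:40558807-40558813 and chr13:40556849-40556855), which begin 28 and 55 nucleotides from the nearest miR-96-5p site. SESN3 has 3 more matches to bases 2 to 7 of miR-182-5p followed by A, at nucleotides 693, 1257 and 2795.
FOXO1, miR-182-5p bases 2 to 7 and A, upstream: tttcattacaatgaagTGCCAAA
FOXO1, miR-182-5p bases 2 to 7 and A, downstream: atgtaactgaacttggTGCCAAA
FOXO1, miR-183-5p, upstream: ctgtagataaggactGTGCCATt
FOXO1, miR-183-5p, downstream: tgtcactttcctcccGTGCCATt

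The other miR-183-5p matches are at nucleotide 112 of the SESN1 3′ UTR (chr6:108987426-108987432, minus strand), nucleotide 1932 of that of SESN3 (chr11:95171317-95171323, minus strand) and nucleotide 2846 of that of CCNG2 (chr4:77168770-77168776, plus strand). The SESN3 match is the only 8mer of miR-183-5p among the 10 genes. FOXO4, BCL6, TXNIP, IRS2 and GADD45B have no 7-nucleotide match to either overexpressed microRNA in the 3′ UTR searched.
SESN1, miR-183-5p: attcagaaatccattGTGCCATg
SESN3, miR-183-5p: ttattcagagaacttGTGCCATa
CCNG2, miR-183-5p: tggttataccctcctGTGCCATt

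The libraries held 61709874 to 67427313 counts, of which 13.5% (NC), 16.7% (miR-182-5p) and 16.1% (miR-183-5p) came from mitochondrially encoded genes. A gene counted as measured in a comparison when its FPKM (fragments scaled for transcript length and library size) reached 1 in either library compared. Of the members, 9 passed in each of the 3 comparisons. IRS2 stayed under 1 in all 3 libraries, and GADD45B, under 1 in NC, passed only through the microRNA libraries. Epithelial markers fitted the label of the line, with an FPKM in NC of 81.6 for KRT19 and 170.7 for EPCAM, although KRT7, a keratin of bile ducts, had 1.03. Of 6 fibroblast markers, 3 were found in the table, with a summed FPKM of 1.04 to 1.98. Of 8 immune and endothelial markers, 6 were found, with 0.777 to 1.63 in sum apart from LYZ (lysozyme). LYZ, which secretory epithelia also make, was at 710 to 771. The fibroblast sum was highest in the miR-182-5p library, through the collagen gene COL1A1 (FPKM 0.952 in NC, 1.81 with miR-182-5p and 1.14 with miR-183-5p), LUM had 0 counts in the other libraries, and its part in the results was not tested.

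FOXO1 was lower in both microRNA libraries, FOXO3 was level, and FOXO4 was higher in both. FOXO1 (ENSG00000150907, chr13:40555667-40666641) had 884 counts in NC, 723 with miR-182-5p and 742 with miR-183-5p, or an FPKM of 1.91, 1.66 and 1.56. The NC library was the highest, and the microRNA libraries lay close together. The ratio to NC was 0.855 (0.774 to 0.944) with miR-182-5p and 0.803 (0.727 to 0.886) with miR-183-5p, and the ratio of the miR-182-5p to the miR-183-5p library was 1.06 (0.960 to 1.18).

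FOXO3 (ENSG00000118689, chr6:108559835-108684774), the other reported target and the gene with a pair of 8mer sites for miR-182-5p, had an FPKM of 4.32 in NC, 4.37 with miR-182-5p and 4.46 with miR-183-5p. The 3 libraries were close to each other. Its ratio to NC was 0.997 (0.943 to 1.05) with miR-182-5p and 1.02 (0.965 to 1.08) with miR-183-5p, and both intervals include 1. FOXO3B (ENSG00000240445), a near-identical copy of FOXO3 on chromosome 17, had 689 counts in NC, 742 with miR-182-5p and 666 with miR-183-5p, against 2569, 2450 and 2735 for FOXO3. The sources used here do not say how reads were divided between the copies, so the FOXO3 values are uncertain to that extent.

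FOXO4 (ENSG00000184481, chrX:71095851-71103532) had an FPKM of 4.45 in NC, 5.56 with miR-182-5p and 5.85 with miR-183-5p. The NC library was the lowest. Its ratio to NC was 1.23 (1.14 to 1.33) with miR-182-5p and 1.29 (1.20 to 1.39) with miR-183-5p. The summed FPKM of the 3 factors was 10.68 in NC, 11.58 with miR-182-5p and 11.87 with miR-183-5p. Within that sum FOXO1 made up 17.9% in NC, 14.3% with miR-182-5p and 13.1% with miR-183-5p, and FOXO4 41.6%, 48.0% and 49.3%.

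**Figure D1:**
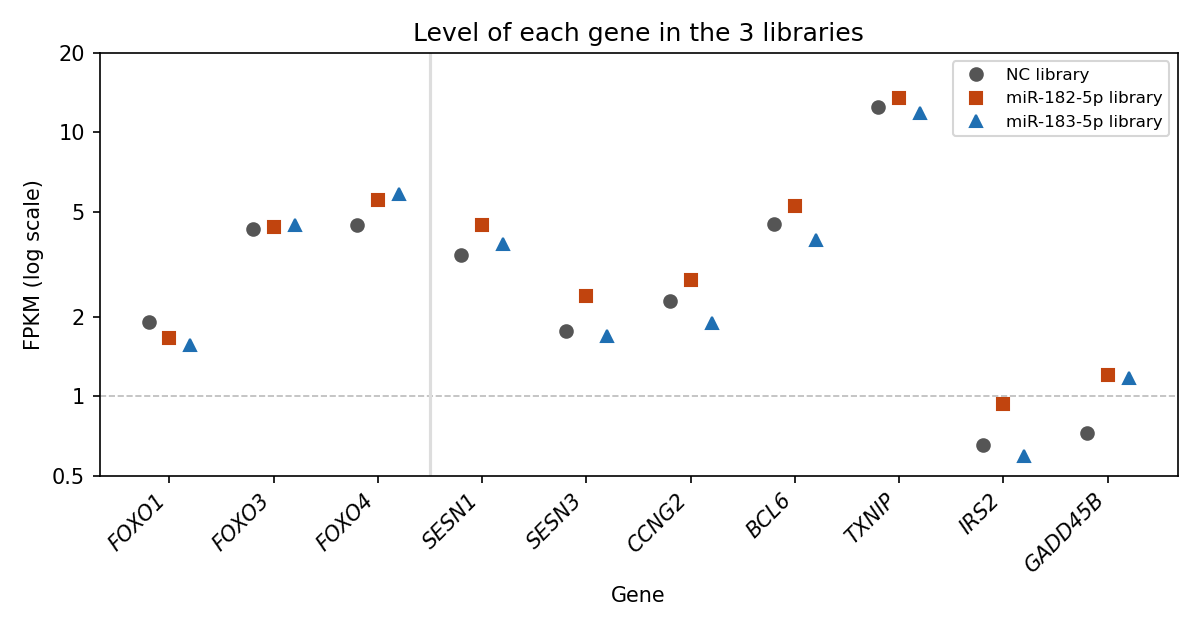
FPKM (log axis) of the 10 genes in the NC (circles), miR-182-5p (squares) and miR-183-5p (triangles) libraries, 1 point for each library, with a dashed line at the FPKM of 1 used as a filter and a grey line between the FOXO factors and the activated genes. TXNIP was highest in all 3 libraries, from 11.9 to 13.4, and IRS2 stayed below the filter.

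In NC, TXNIP had a higher FPKM than 77.7% of 13454 genes measured in any library, FOXO3 than 47.0% and FOXO1 than 23.6%. The order of the levels, compared per length by FPKM, began with TXNIP in each library and ended with GADD45B and IRS2. In NC, TXNIP (12.4) was 2.78 times BCL6 (2.63 to 2.94), the next gene. BCL6, FOXO4 and FOXO3, at 4.48 to 4.32, did not differ between neighbours beyond counting error, and the same held for FOXO1 against SESN3 and for GADD45B against IRS2. In the miR-182-5p library SESN3, at 2.40, stood 1.45 times (1.33 to 1.58) above FOXO1, whereas in NC it was the lower of the pair at 1.77 against 1.91, with an interval for the ratio that includes 1.

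The sestrins SESN1 and SESN3, which restrain the growth kinase complex mTORC1 and limit oxidative damage, were both higher in the miR-182-5p library. SESN1 (ENSG00000080546, chr6:108986437-109094819) had an FPKM of 3.43 in NC, 4.45 with miR-182-5p and 3.77 with miR-183-5p, the miR-182-5p library being the highest. Its ratio to NC was 1.28 (1.19 to 1.38) with miR-182-5p and 1.08 (1.01 to 1.17) with miR-183-5p. AL390208, a gene on the opposite strand of SESN1, had 8, 59 and 21 counts in the same order, and its part in the SESN1 counts was not tested. SESN3 (ENSG00000149212, chr11:95165513-95232541) had an FPKM of 1.77 in NC, 2.40 with miR-182-5p and 1.69 with miR-183-5p. Here the miR-182-5p library stood apart from the other pair. The SESN3 ratio was 1.34 (1.25 to 1.44) with miR-182-5p and 0.943 (0.876 to 1.02) with miR-183-5p.

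CCNG2, a cyclin that acts in growth arrest, and BCL6, a transcriptional repressor, were higher with miR-182-5p and lower with miR-183-5p. CCNG2 (ENSG00000138764, chr4:77157207-77170060) had 1321 counts in NC, 1498 with miR-182-5p and 1121 with miR-183-5p, or an FPKM of 2.29, 2.76 and 1.89. NC lay between the microRNA libraries, and the CCNG2 ratios to NC were 1.19 (1.10 to 1.28) and 0.812 (0.749 to 0.880). BCL6 (ENSG00000113916, chr3:187721377-187745725) had an FPKM of 4.48 in NC, 5.25 with miR-182-5p and 3.92 with miR-183-5p, with ratios of 1.15 (1.09 to 1.23) and 0.863 (0.810 to 0.920). NC lay in between here too.

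TXNIP, an inhibitor of thioredoxin that also restricts glucose uptake, differed little. TXNIP (ENSG00000265972, chr1:145992435-145996579) had an FPKM of 12.4 in NC, 13.4 with miR-182-5p and 11.9 with miR-183-5p, and ratios of 1.07 (1.02 to 1.12) and 0.942 (0.898 to 0.987). These calls depend on the scaling: with TMM factors the first ratio was 1.02 (0.975 to 1.07), and with mitochondrially encoded genes left out of the library total the second was 0.971 (0.926 to 1.02).

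IRS2, an adaptor that carries the insulin signal from the receptor to PI3 kinase, had 413 counts in NC, 556 with miR-182-5p and 385 with miR-183-5p (ENSG00000185950, chr13:109752695-109786583). Its FPKM was 0.653, 0.932 and 0.591, so the miR-182-5p library was the highest. The IRS2 ratio was 1.41 (1.24 to 1.60) with miR-182-5p and 0.892 (0.774 to 1.03) with miR-183-5p. GADD45B, a stress-induced activator of MAP kinase signalling, was low in all 3 libraries (ENSG00000099860, chr19:2476122-2478259). It had 122 counts in NC, 191 with miR-182-5p and 202 with miR-183-5p, or an FPKM of 0.725, 1.20 and 1.17, with NC the lowest. Its ratios to NC had the highest point estimates of the 10 genes in both libraries, at 1.64 (1.30 to 2.07) and 1.58 (1.26 to 2.0).

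**Figure D2:**
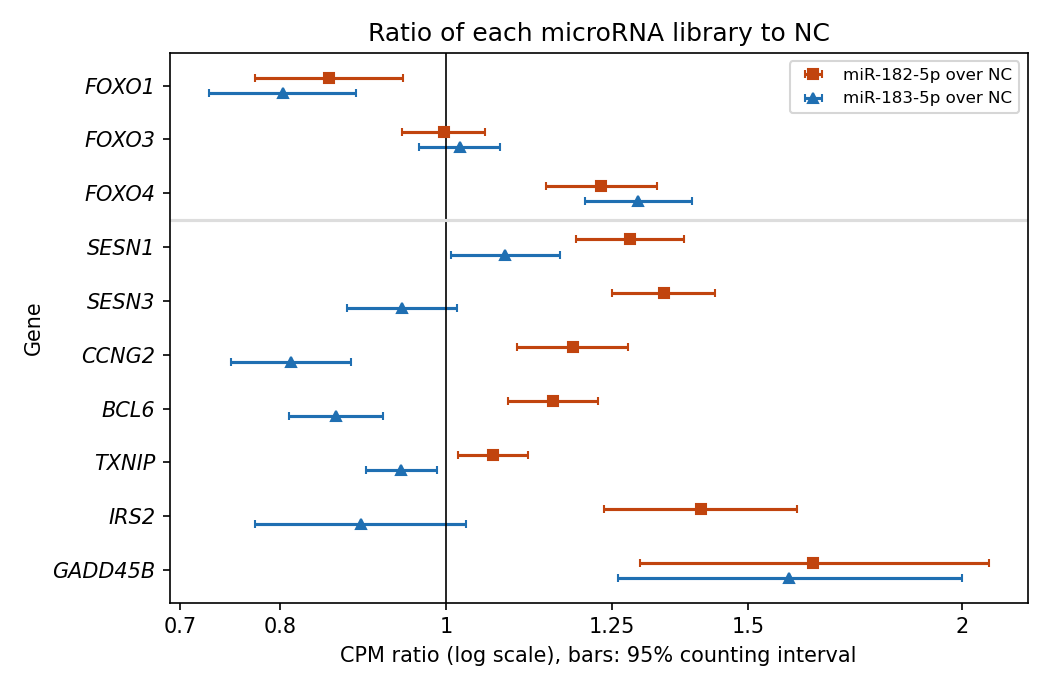
CPM ratio to NC (log axis) of each gene in the miR-182-5p (squares) and miR-183-5p (triangles) library, with bars for the 95% counting interval; both share the NC library. With miR-182-5p all 7 activated genes lie right of 1, while with miR-183-5p 5 of them lie left of it, CCNG2, BCL6 and TXNIP with their whole intervals and SESN3 and IRS2 with intervals that include 1.

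No member reached a 2-fold difference in any comparison, where 4.74% of measured genes did for miR-182-5p against NC, 2.81% for miR-183-5p against NC and 3.15% for miR-182-5p against miR-183-5p. In the miR-182-5p library 8 of the 10 members were higher than in NC (FOXO4 and the 7 activated genes) and FOXO1 alone was lower. Of the 9 measured members, which leave out IRS2, 7 were higher. Of all 13267 measured genes, 36.3% were higher and 38.5% lower by the same rule. The median log2 ratio of the 10 members was 0.27, beside 0.06 over all genes with at least 1 count in each library. Over measured genes alone it was 0.25 for the members, which GADD45B enters only through its higher library, and -0.01 for all. In the miR-183-5p library 3 members were higher (FOXO4, SESN1 and GADD45B) and 4 were lower (FOXO1, CCNG2, BCL6 and TXNIP), where 25.1% of 12926 measured genes were higher and 37.4% lower. With mitochondrially encoded genes left out of the library totals, the shares of all measured genes were 32.7% and 28.7%. The median of the 10 was -0.09, beside -0.02 over all genes with at least 1 count in each library. Both comparisons use the same NC library, so they are not independent of each other.

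The comparison of the microRNA libraries with each other does not use NC. The levels of FOXO1, FOXO3 and FOXO4 did not differ between these libraries beyond counting error, at ratios (miR-182-5p over miR-183-5p) of 1.06 (0.960 to 1.18), 0.979 (0.926 to 1.03) and 0.951 (0.888 to 1.02). With TMM factors FOXO3 at 0.933 (0.883 to 0.985) and FOXO4 at 0.906 (0.846 to 0.971) were lower with miR-182-5p. By contrast 6 of the 7 activated genes were higher with miR-182-5p. IRS2 was at 1.58 (1.38 to 1.80), CCNG2 at 1.46 (1.35 to 1.58), SESN3 at 1.42 (1.33 to 1.52) and BCL6 at 1.34 (1.26 to 1.42). Smaller ratios were those of SESN1, at 1.18 (1.10 to 1.27), and TXNIP, at 1.13 (1.08 to 1.19). GADD45B was the exception at 1.03 (0.843 to 1.27). Without IRS2, which is below the FPKM filter, 5 of the 6 measured activated genes were higher. Of 13308 measured genes 35.8% were higher and 29.8% lower, and of those with a mean FPKM below 5, 41.2% and 18.1%. With TMM factors the shares of all measured genes were 25.7% and 41.3% (with median-of-ratios factors 25.9% and 40.9%). The 6 activated genes were still higher under both sets of factors. The median log2 ratio of the 10 was 0.21, beside 0.07 over all genes with a count in each library.

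**Figure D3:**
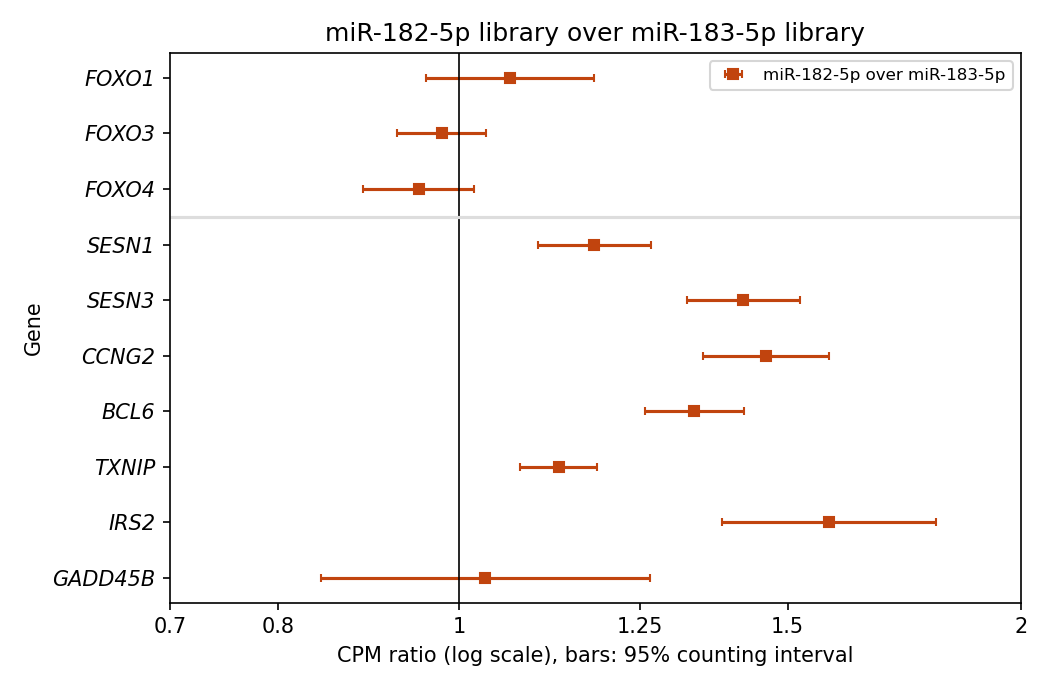
CPM ratio of the miR-182-5p to the miR-183-5p library (log axis) for each gene, with bars for the 95% counting interval and a grey line between the FOXO factors and the activated genes. The 3 factors and GADD45B have intervals that include 1, and the other 6 activated genes lie between 1.13 and 1.58.

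The ratios to NC are given here beside the 7-nucleotide matches to bases 2 to 8, with matches to bases 2 to 7 followed by A counted apart. In the miR-182-5p library FOXO3, with 2 such 7-nucleotide matches, was at 0.997, and SESN3, with 1 and with 3 of the shorter kind, was at 1.34. FOXO1, with 2 of the shorter kind alone, was at 0.855, the lowest of the 10. The 7 genes with neither kind lay between 1.07 (TXNIP) and 1.64 (GADD45B). In the miR-183-5p library FOXO1, the only member with 2 matches, had the lowest ratio, 0.803. The genes with 1 match were CCNG2 at 0.812, SESN3, which also has 1 of the shorter kind, at 0.943, and SESN1 at 1.08. BCL6, with 1 of the shorter kind alone, was at 0.863. The 5 genes with neither kind were IRS2 at 0.892, TXNIP at 0.942, FOXO3 at 1.02, FOXO4 at 1.29 and GADD45B at 1.58. The values of genes with and without a match overlapped in both libraries. These are single libraries and 10 genes, and no test of sites was made.

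Level and length moved with the ratios in the whole table. With miR-182-5p, genes had a median log2 ratio to NC of 0.12 for those with a mean FPKM below 5, -0.07 from 5 to 20 and -0.20 above that. By the transcript length that CPM and FPKM imply it was 0.06 below 2 kb, -0.12 from 2 to 4 kb, -0.04 from 4 to 8 kb and 0.07 above 8 kb. The members have implied lengths from 2.57 kb (GADD45B) to 12.5 kb (SESN3), and all but FOXO4 and TXNIP have a mean FPKM below 5, the band in which 44.5% of genes were higher and 22.4% lower. The part of level and length in the members' ratios was not tested. In the miR-183-5p library the medians were 0.02, -0.05 and -0.10 over the same levels, and 29.1% of genes below 5 were higher and 25.0% lower. Between the microRNA libraries, 46.8% of measured genes above 8 kb were higher with miR-182-5p and 23.9% lower. IRS2, CCNG2 and SESN3, the highest members there, have implied lengths of 9.67, 8.8 and 12.5 kb. FOXO3, at 9.09 kb in the same band, was at 0.979 (0.926 to 1.03).

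**Figure D4:**
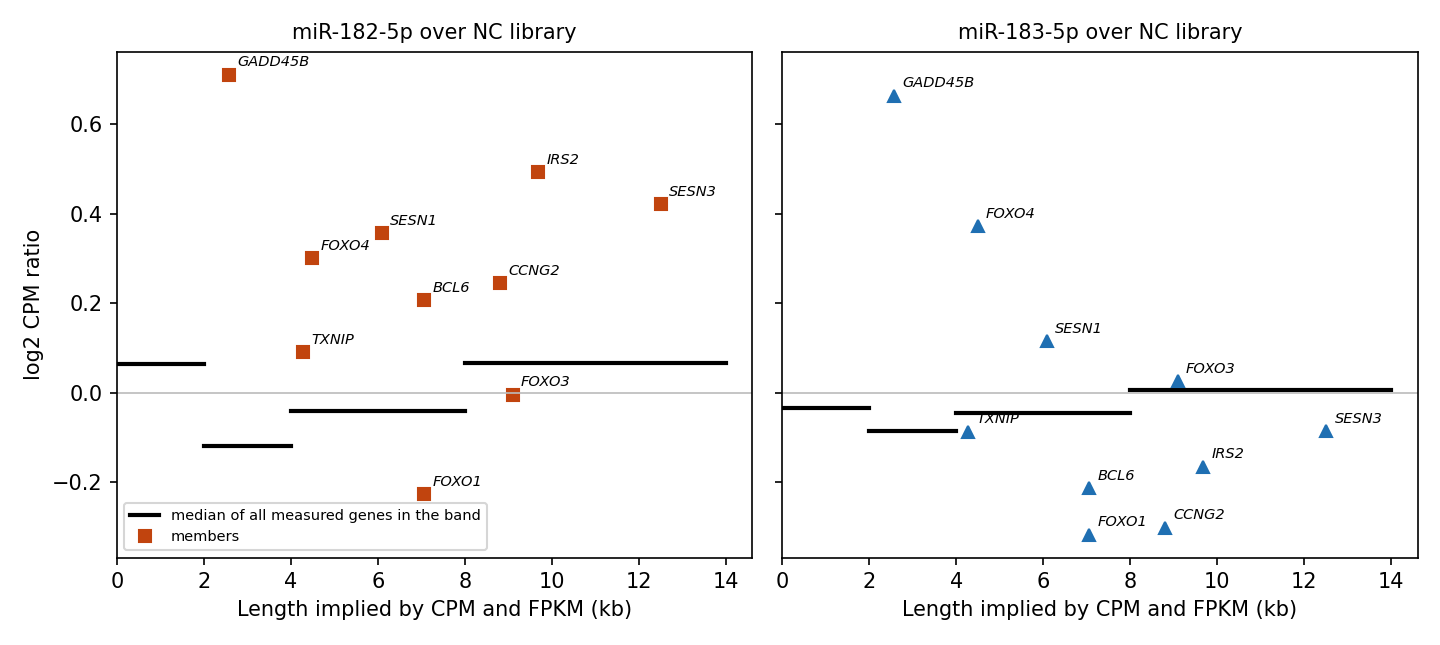
log2 CPM ratio to NC of the 10 genes in the miR-182-5p (left, squares) and miR-183-5p (right, triangles) library against the transcript length in kb that CPM and FPKM imply; black lines are the medians of all measured genes in each length band, the last drawn to 14 kb. On the left FOXO1 and FOXO3 lie below the line of their band and the other 8 genes above it.

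Of 35 other genes known to be activated by FOXO factors, 33 had a row and 24 were measured. With miR-182-5p, 13 of these were higher than NC and 10 lower, with a median log2 ratio of 0.12, beside 36.3% higher, 38.5% lower and a median of -0.01 over all measured genes. Over all measured genes the median was 0.12 for a mean FPKM below 5, -0.07 from 5 to 20 and -0.20 above that. The list has genes in each of these bands, such as ATG14, ULK1 and ERBB3 in that order. The part of level in its median was not tested. The highest were ATG14 (1.48, 1.36 to 1.62) and ULK1 (1.36, 1.31 to 1.42), which start autophagy, the cell death gene BBC3 (1.33, 1.19 to 1.49) and the insulin receptor gene INSR (1.30, 1.21 to 1.40). The lowest were the translation repressor EIF4EBP1 (0.779, 0.722 to 0.841), the DNA damage gene GADD45A (0.841, 0.792 to 0.893), the mitophagy kinase PINK1 (0.875) and the pseudokinase TRIB1 (0.887). With a minimum FPKM of 5 in place of 1 the median of the list was 0.02, beside -0.10 over all genes that reached 5. The cell cycle inhibitors CDKN1A and CDKN1B lay on opposite sides of 1, at 1.11 (1.03 to 1.19) and 0.897 (0.859 to 0.938).

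With miR-183-5p, 6 of these 24 genes were higher than NC and 8 lower, with a median of -0.04, beside 25.1%, 37.4% and -0.03 over all measured genes. INSR (1.16), ATG14 and BCL2L11 (both 1.15) and ULK1 (1.13) were the highest. PINK1 (0.731, 0.677 to 0.789), GADD45A (0.781), CITED2 (0.849) and SOD2 (0.859) were the lowest. Directly between the microRNA libraries, 16 of the 24 were higher with miR-182-5p and 3 lower, beside the 35.8% and 29.8% of all measured genes. BBC3 stood at 1.43 (1.28 to 1.59) and the ubiquitin ligase gene FBXO32 at 1.33 (1.20 to 1.46). The 3 lower genes were EIF4EBP1 at 0.798 (0.740 to 0.861), MXI1 at 0.893 (0.832 to 0.958) and MAP1LC3B at 0.943 (0.903 to 0.985). PINK1 overlaps PINK1-AS, BCL2L11 overlaps MIR4435-2HG, SOD2 overlaps WTAP and MAP1LC3B overlaps FBXO31, all on the opposite strand. Whether counting used strand is not stated in these sources, so such pairs are uncertain.

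The list of FOXO kinases and upstream signalling genes held 22 genes, of which 20 were measured. With miR-182-5p, 9 were higher and 7 lower of the 20, beside 36.3% and 38.5% of all measured genes, with a median log2 ratio of 0.02. Besides INSR the higher ones included the AKT phosphatase gene PHLPP2 (1.29, 1.22 to 1.37), the mTORC2 subunit gene RICTOR (1.21, 1.16 to 1.25) and the receptor gene IGF1R (1.20, 1.16 to 1.23). The lowest were the PI3 kinase catalytic gene PIK3CB (0.757, 0.719 to 0.797), the mTORC2 subunit gene MAPKAP1 (0.780, 0.742 to 0.820), the casein kinase gene CSNK1A1 (0.845) and the PI3 kinase regulatory gene PIK3R2 (0.872). AKT1, at 0.997 (0.968 to 1.03), had an interval that includes 1. With miR-183-5p, 5 were higher and 6 lower, where 25.1% and 37.4% of all measured genes were, PIK3CB being the lowest at 0.827 (0.787 to 0.868). CSNK1A1 and PIK3R2 overlap other genes on the same strand. Of these AC021078, beside CSNK1A1, had 3180 counts in NC and 4520 with miR-182-5p. PHLPP2, with 1972 counts in NC, overlaps MARVELD3, with 3009, on the opposite strand. The values of CSNK1A1, PIK3R2 and PHLPP2 are therefore uncertain.

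The list of stress kinases, FOXO-modifying enzymes and 14-3-3 genes had 20 of 22 genes measured, with 5 higher and 11 lower with miR-182-5p (median -0.11) and 3 higher and 10 lower with miR-183-5p (median -0.06). Over all measured genes 36.3% were higher and 38.5% lower with miR-182-5p, and 25.1% and 37.4% with miR-183-5p. All 7 14-3-3 genes were lower in both microRNA libraries. They were 7 of the 11 lower genes of the list with miR-182-5p and 7 of the 10 with miR-183-5p. Their summed FPKM was 469 in NC, 367 with miR-182-5p and 429 with miR-183-5p. With miR-182-5p they ran from SFN, the epithelial form, at 0.641 (0.610 to 0.673) to YWHAG at 0.863 (0.846 to 0.879). With miR-183-5p they ran from SFN at 0.807 (0.772 to 0.845) to YWHAB at 0.943 (0.925 to 0.962). In the band above an FPKM of 20, 70.7% of genes were lower than NC with miR-182-5p and 66.0% with miR-183-5p. The acetyltransferase gene KAT2B was the highest of the measured genes of the list with miR-182-5p at 1.22 (1.11 to 1.34), while the kinase gene STK3, below the FPKM filter, was at 1.41 (1.26 to 1.58), and the deubiquitinase gene USP7 was at 0.794 (0.766 to 0.822).

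**Figure D5:**
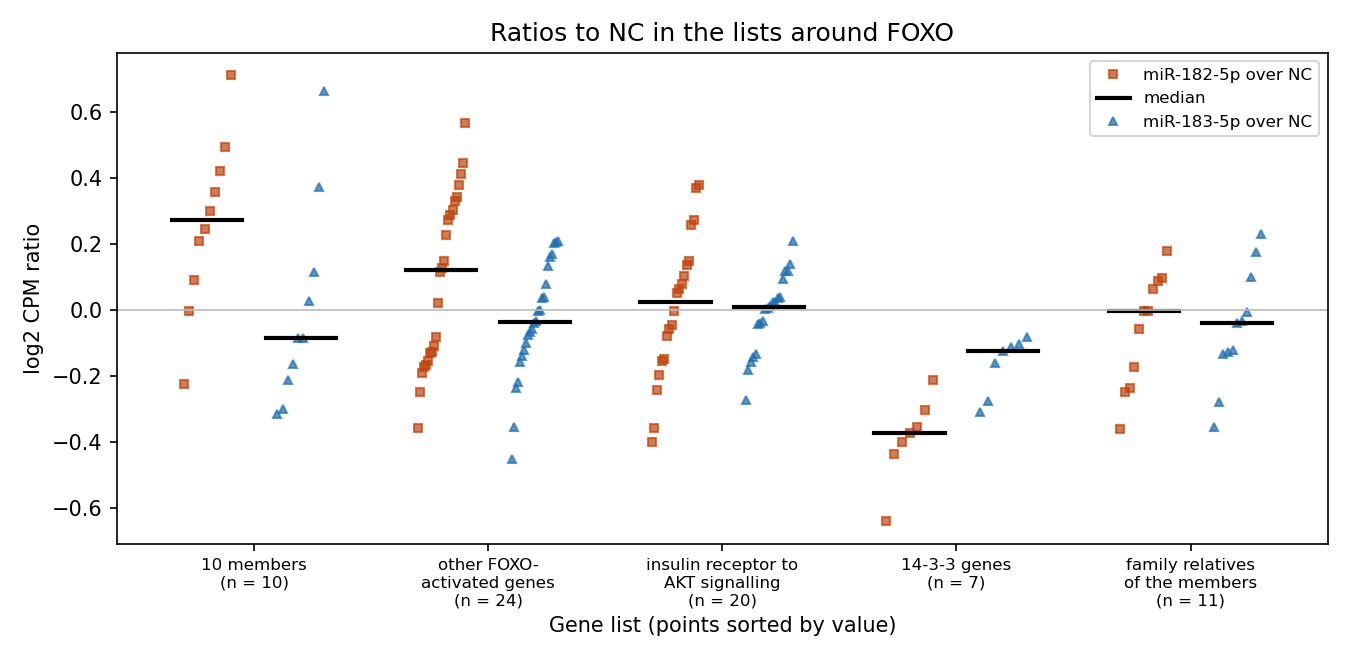
log2 CPM ratio to NC in the miR-182-5p (squares) and miR-183-5p (triangles) library for all 10 members and for the measured genes of 4 lists, each point a gene, sorted by value; black bars are medians. The 14-3-3 genes lie below 0 in both libraries, and the members' bar with miR-182-5p is at 0.27. The list labelled insulin receptor to AKT signalling is that of FOXO kinases and upstream signalling genes.

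Relatives of the members are given from a list of 13 genes. With miR-182-5p, 2 of 11 measured relatives were higher and 4 lower (median -0.003), and with miR-183-5p 2 were higher and 5 lower, beside the same shares of all measured genes as above. ARRDC4, an arrestin-like paralog of TXNIP, was at 0.778 (0.705 to 0.859) with miR-182-5p and 1.17 (1.07 to 1.28) with miR-183-5p, each on the other side of 1 from TXNIP. GADD45A was lower in both libraries, where GADD45B was higher. SESN2 was at 0.998 (0.934 to 1.07) and 0.911 (0.852 to 0.974), IRS1 at 1.05 (1.01 to 1.08) and 0.976 (0.946 to 1.01), and CCNG1 at 0.887 (0.860 to 0.914) and 0.919 (0.892 to 0.946). The fourth factor, FOXO6, had an FPKM of 1.28 to 1.47 and intervals that include 1.

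The cyclin D gene CCND1, which FOXO factors are known to repress, was at 0.925 (0.894 to 0.957) with miR-182-5p and 1.01 (0.978 to 1.04) with miR-183-5p. MLX, a partner of the glucose sensor MLXIP that drives TXNIP, was at 0.792 (0.759 to 0.827) and 0.918 (0.882 to 0.955). MLXIP was at 1.08 (1.05 to 1.11) and 1.03 (1.01 to 1.06). TXN, the thioredoxin that TXNIP binds, was at 0.728 (0.714 to 0.741) and 0.825 (0.811 to 0.839). CCND1 overlaps LTO1 (1989 counts in NC) and MLX overlaps PSMC3IP (932), both on the opposite strand, so their values are uncertain.

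RefSeq promoter windows (GRCh38.p14, 250 bases before to 50 after a start site) were found for all 10 genes, 17 windows in all. They were searched on both strands for TGTTTAC, the core that FOXO factors bind, and CAAAACA, a core of insulin response elements; the motifs do not overlap here. TGTTTAC was found in 2 of the 17 windows, where 3.42% of 35116 windows hold it, and CAAAACA in 1, where 4.92% hold it. The stretches are shown on the gene's strand with the match, in all cases the reverse complement, in capitals. The TXNIP match begins 124 bases before the start site, the IRS2 match 40 bases before it and the FOXO4 match 23 bases after it. Coordinates of the whole stretches, flanks included, are chr1:145996677-145996723 (TXNIP), chr13:109786597-109786643 (IRS2) and chrX:71095854-71095900 (FOXO4). A match is a description of these letters and not a measured binding site.
TXNIP promoter: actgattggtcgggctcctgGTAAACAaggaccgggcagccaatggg
IRS2 promoter: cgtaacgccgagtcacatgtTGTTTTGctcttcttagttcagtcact
FOXO4 promoter: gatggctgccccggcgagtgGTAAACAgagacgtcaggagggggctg

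Genes with the pattern most like those of 3 members were sought by the Euclidean distance of the log2 ratios to NC over the 3 libraries, among genes with at least 5 CPM in a library and no overlap with another gene. For FOXO1 they were EIF3FP3, RHPN2 and SFR1, at distances of 0.011 to 0.013, for FOXO3 RAD51AP1, IFT122 and EEF2K, at 0.0014 to 0.0067, and for SESN3 AL137003, SIK1 and ZNF132, at 0.021 to 0.024 (SIK1 has a near-identical copy). With 3 libraries such likeness is common: 325 genes lay within 0.1 of FOXO1, 1368 of FOXO3 and 78 of SESN3.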

How the data were processed

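Total RNA of QBC-939 cells was sequenced, 1 library for each of 3 groups. Per the submitters' processing notes, reads were trimmed with cutadapt 1.9, checked with FastQC, and the build is GRCm38 (mouse), but every identifier in the table of 30923 genes is a human Ensembl one. These sources name no aligner, counting program or strand setting. The gene counts (whole numbers, not normalized) and the FPKM values were deposited by the authors in the same table, per the file headers. Coordinates of genes are those of the table, 59.5% of whose genes in GENCODE release 29 have the identical span.

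CPM is the count over the library total. Ratios carry exact Clopper-Pearson 95% intervals given the sum of both counts (scipy 1.17.1, python 3.11.15), a procedure tested on simulated data. Reads without molecular identifiers are not independent molecules, so intervals cover counting error only. Measured genes reached an FPKM of 1 in either library compared. A seed match was to bases 2 to 8. TMM factors came from edgeR 4.0.16 and median-of-ratios size factors from DESeq2 1.42.0. The rule for named genes takes all members, up to 4 genes at each end of each list, and 3 most alike genes for FOXO1, FOXO3 and SESN3. Other list genes that are named (such as CDKN1A, CDKN1B, AKT1, SESN2 and IRS1) were picked with their values known. The members and lists were chosen with earlier results of these data known. Bands of level and length, the sum of FOXO factors, the 14-3-3 genes as a group and FOXO3B were added after the values were seen.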

Additional observations from a re-analysis of the deposited data

How the results depend on the processing

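Each of the 30 member ratios was recomputed with TMM factors, median-of-ratios size factors, library totals without mitochondrially encoded genes and the deposited FPKM, 120 values in all. Of these, 118 stayed inside the counting interval of the CPM ratio, none of the called ratios changed direction, and 2 moved, both of TXNIP between the microRNA libraries (1.08 with TMM and with median-of-ratios factors, 1.13 with CPM). These scalings shifted the median of all measured genes by -0.07 to 0.06 on the log2 scale. Between the microRNA libraries, members called lower numbered 0 with CPM and 2 (FOXO3 and FOXO4) with TMM or median-of-ratios factors; other counts of members called kept within 1.5 times. The median log2 ratio of the measured members against NC ranged from 0.18 to 0.30 with miR-182-5p and from -0.09 to -0.04 with miR-183-5p. The count of members past 2-fold was 0 in all comparisons, also with pseudocounts of 1 or 0.1 on FPKM. Members with a miR-182-5p site numbered 2, but 5 with 6-nucleotide matches and 1 with 8mers alone, and with a miR-183-5p site 4, but 8 with 6-nucleotide matches, 1 with 8mers alone and 2 with 6 nucleotides followed by A (a search chosen after seeing the data). The median of immune and endothelial markers with miR-182-5p, -0.27 over 2 measured genes, was 0.26 over those with at least 1 count in each library. No paired analysis was possible because each group has 1 library, and for the same reason no replicate could be left out.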

Other observations

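Some FOXO-activated genes below the FPKM filter had larger ratios to NC than any of the 10 genes. The mitophagy receptor gene BNIP3 had 79 counts in NC and was at 3.11 times that level (2.40 to 4.07) with miR-182-5p and 1.19 (0.874 to 1.62) with miR-183-5p. PIK3IP1, an inhibitor of PI3 kinase, had 54 counts in NC and was at 2.88 (2.10 to 4.02) and 1.74 (1.23 to 2.47). PDK4, which restrains glucose oxidation, went the other way, at 0.741 (0.628 to 0.874) and 0.546 (0.457 to 0.651), and the gluconeogenic gene PCK1 was at 1.69 (1.17 to 2.46) and 0.683 (0.430 to 1.08). BNIP3 overlaps AL162274 on the opposite strand, which had 32 counts in NC and 8 with miR-182-5p. FOXO3B, the copy of FOXO3, was at 1.13 (1.01 to 1.25) with miR-182-5p and 0.925 (0.830 to 1.03) with miR-183-5p. These genes were named after their values were seen.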
